A study of Mus musculus with 8 samples.

Results

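The genes described are 7 keratins (*Krt5*, *Krt7*, *Krt8*, *Krt14*, *Krt18*, *Krt19* and *Krt80*) and vimentin (*Vim*), chosen by gene symbol in the deposited count table. They are 8 of the 37310 genes of that table. Keratins are the intermediate filament proteins of epithelial cells, and a filament is built from pairs of an acidic type I and a basic type II chain. *Krt8* (type II) and *Krt18* (type I) form the usual pair of simple epithelia such as the luminal lining of the mammary duct, often together with *Krt7* (type II) and *Krt19* (type I), whereas *Krt5* (type II) and *Krt14* (type I) form the pair of basal and myoepithelial cells. Vimentin is the intermediate filament protein of mesenchymal cells and a commonly used marker of epithelial-to-mesenchymal transition (EMT), which TGF-β induces in NMuMG cells.

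RNA was sequenced from NMuMG, an epithelial cell line of mouse mammary gland grown in medium with serum and insulin, in 4 groups of 2 replicates. These were control cells and cells of genotype KO, each untreated or given TGFβ1 at 10 ng/ml for 2 h. According to the study's methods, KO cells carry a Cas9 deletion of the promoter and first exon of the long non-coding RNA gene *Lnc-Nr6a1* and were grown from sorted single cells. Which clone or clones gave the libraries is not given in the labels, so that a difference between genotypes may be one between clones and cannot be told apart from it.

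The libraries held 4297832 to 13574397 counts. The targeted gene, listed as *Gm13507*, was counted 3 and 14 times without TGF-β in control cells and 11 and 7 times in KO cells, and after TGF-β 25 and 35 times in control and 0 and 0 times in KO cells. As this is against the genotype given for the untreated cells, all libraries of this genotype are called KO-labelled libraries here. *Mal2*, *Dsg2* and *Fam111a*, which the study singled out in these same libraries and which passed the filter through control libraries alone, had 52 to 188 counts in those and 0 in all 4 KO-labelled ones. This is a description and no independent check of the labels. Lower levels of *Mal2*, *Dsg2* and *Fam111a* in cells with the deletion were also reported by the study from RT-qPCR. Replicates differed most in the treated control group, with a median absolute difference of log2 CPM of 0.33 over genes, against 0.20 to 0.22 in the other groups. The treatment was visible in the early TGF-β target genes *Snai1*, *Skil* and *Smad7*, which were called higher after TGF-β in both genotypes. *Id1*, an inhibitor of differentiation that TGF-β represses in epithelial cells, was called lower in control cells by a log2 fold change of -0.65 (SE 0.17, edgeR adjusted p = 0.0480). In the KO-labelled libraries *Id1* was at 64.4 and 74.3 CPM untreated and 96.01 and 76.1 CPM treated (log2 0.31, SE 0.17, adjusted p = 0.337) and was not called, with an interaction of 0.96 (SE 0.25, unadjusted p = 0.00328, adjusted p = 0.444, edgeR).

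Levels between genes were compared per length, as CPM (counts per library size, adjusted by edgeR's TMM factors) divided by the kilobases of exon of the gene. On this scale NMuMG cells expressed *Krt18*, *Krt8*, *Vim* and *Krt19* at high levels, with means over the 8 libraries of 2434, 1675, 1337 and 610.1 CPM per kilobase. *Krt18* ranked 13, *Krt8* 25, *Vim* 30 and *Krt19* 80 among the 13028 genes tested. *Krt14* (9.19 CPM per kilobase, rank 6479) and *Krt80* (6.32, rank 7859), an epithelial type II keratin, lay near the middle of all genes. The mean of *Krt14* pools unlike groups, from 1.45 CPM per kilobase in untreated to 18.4 in treated KO-labelled libraries. *Krt7* was close to the lower end at 0.136 CPM per kilobase, rank 12955, with 4 to 14 counts in a library. *Krt5* had 0 to 2 counts in every library, at or under the 3 counts taken as the limit of detection (0.238 to 0.661 CPM, for counting error only), and was the 1 member that did not pass the filter for low counts. The RNA of the basal type I keratin *Krt14* was thus counted in all libraries, while that of its usual partner *Krt5* was not detectable at this depth.

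In order of per-length level within each group, *Krt18* stood above *Krt8* in all 8 libraries, and *Krt8* stood above *Vim* in all but the untreated KO-labelled libraries. There *Krt8* was at 1421 ± 46.9 (SD, n = 2) and *Vim* at 1515 ± 8.75 (SD, n = 2) CPM per kilobase. *Krt19* followed in every library. *Krt14* lay below *Krt80* in the untreated libraries of both genotypes and above it in the treated ones, at 14.1 ± 0.770 against 5.77 ± 2.09 (SD, n = 2) CPM per kilobase in control cells and 18.4 ± 7.55 against 6.52 ± 3.09 (SD, n = 2) in the KO-labelled ones. The members together took 0.869 ± 0.0165% (SD, n = 2) of the counts of untreated control libraries and 1.15 ± 0.185% after TGF-β. Of the KO-labelled libraries they took 1.06 ± 0.0295% and 1.18 ± 0.115% (SD, n = 2).

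**Figure D1:**
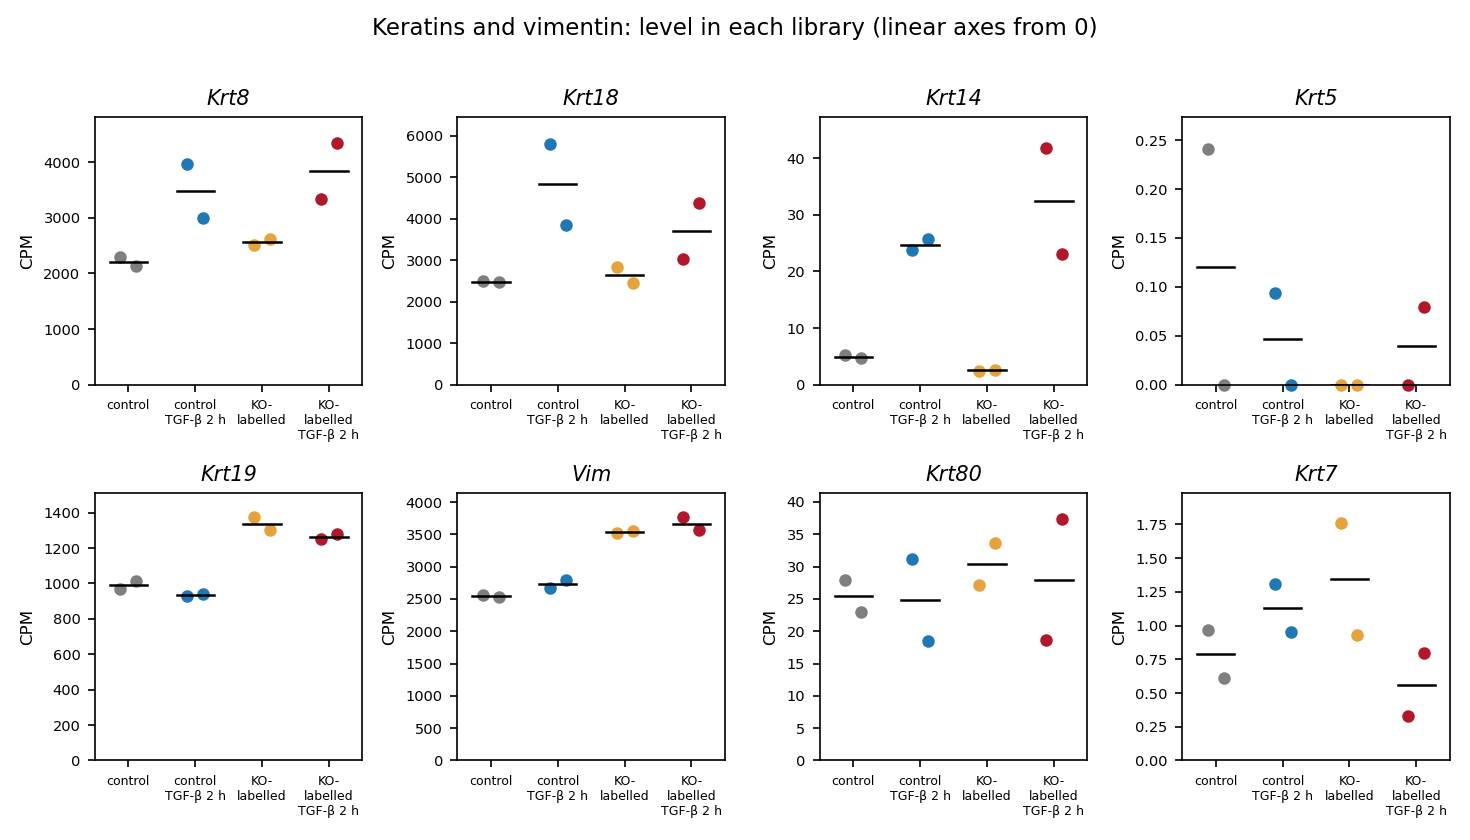
Level of each keratin and of vimentin in CPM (linear axes from 0, scaled per gene) by group, with a point for each library and a line at the mean of the 2 libraries. The treated libraries lie above the untreated ones for *Krt8*, *Krt18* and *Krt14*, and the KO-labelled libraries lie above the control libraries for *Krt19* and *Vim*; *Krt5* has at most 2 counts in a library.

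The first question was how TGF-β treatment for 2 h altered these genes. In control cells the keratins *Krt14*, *Krt18* and *Krt8* rose, while *Krt19*, *Vim*, *Krt80* and *Krt7* did not pass the test. A call needed a Benjamini-Hochberg adjusted p-value below 0.05 over all 13028 genes tested in edgeR's quasi-likelihood test, and a log2 fold change beyond 0.5 in either direction. By this rule 3 of the 7 tested members were called higher and 0 lower, against 4.69% of all genes called higher and 4.47% called lower. Their median log2 fold change was 0.52, against 0.02 over all genes tested. In bulk libraries a change in the number of cells that hold an RNA and a change in its amount per cell cannot be told apart.

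The sequences around the annotated starts of the 3 keratins called in control cells are shown because these are the members that moved with TGF-β. Each runs from 250 bases before to 50 after the start of the gene in GENCODE vM1 on NCBIM37, 5′ to 3′, with matches on either strand to 4 short motifs in capitals. The AP-1 motif was searched as TGANTCA. The GC box was searched as GGGCGG. The TATA box was searched with the letters TATAAA. The SMAD box was searched with the letters CAGAC.
*Krt14*, chr11:100068813-100069112, minus strand: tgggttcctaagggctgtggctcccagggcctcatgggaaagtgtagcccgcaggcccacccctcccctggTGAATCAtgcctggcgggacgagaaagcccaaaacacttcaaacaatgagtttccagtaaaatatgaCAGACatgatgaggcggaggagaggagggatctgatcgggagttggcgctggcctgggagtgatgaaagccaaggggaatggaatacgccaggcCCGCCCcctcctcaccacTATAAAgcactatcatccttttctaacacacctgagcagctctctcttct
*Krt8*, chr15:101834724-101835023, minus strand: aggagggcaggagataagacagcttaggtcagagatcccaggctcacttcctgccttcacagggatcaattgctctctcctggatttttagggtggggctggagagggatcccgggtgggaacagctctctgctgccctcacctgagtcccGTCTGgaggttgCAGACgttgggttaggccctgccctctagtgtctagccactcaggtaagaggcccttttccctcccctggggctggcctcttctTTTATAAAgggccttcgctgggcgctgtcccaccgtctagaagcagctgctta
*Krt18*, chr15:101858397-101858696, plus strand: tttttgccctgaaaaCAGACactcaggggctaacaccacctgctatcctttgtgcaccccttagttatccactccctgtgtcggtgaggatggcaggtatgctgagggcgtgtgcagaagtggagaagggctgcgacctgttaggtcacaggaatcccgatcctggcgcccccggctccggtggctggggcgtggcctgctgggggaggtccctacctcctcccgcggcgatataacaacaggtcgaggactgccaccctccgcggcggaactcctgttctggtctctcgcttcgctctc
The window of *Krt14* holds 1 match of each motif, the AP-1 motif at position -179, the SMAD box at -112, the GC box at -18 and the TATA box at position 1, counted from the annotated start. That of *Krt8* holds 2 SMAD boxes, at -99 and -87, and 2 overlapping TATA boxes, on opposite strands, at -3 and -1. That of *Krt18* holds 1 SMAD box, at -235, and none of the others. Among 32851 windows of the same length around RefSeq gene starts, 7.81% hold the AP-1 motif, 35.7% the GC box, 13.6% the TATA box and 49.6% the SMAD box, so that the SMAD box found in all 3 windows is shared with many genes. The windows of *Krt8* and *Krt18* have the same letters as the RefSeq ones. That of *Krt14* does not, so that its positions are relative to the GENCODE vM1 start and are not those of the RefSeq start. These matches describe the letters only and were not tested for binding.

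*Krt14* (ENSMUSG00000045545.8, chromosome 11, 100064476 to 100068862, minus strand, 8 exons) was the most changed member. In control cells it had 43 and 38 counts untreated (5.19 and 4.64 CPM) and 254 and 243 counts after TGF-β (23.8 and 25.7 CPM). With the KO label it went from 11 and 20 counts (2.43 and 2.66 CPM) to 513 and 290 (41.8 and 23.05 CPM). All 4 treated libraries lay above all 4 untreated ones, and the KO-labelled libraries were the lowest when untreated. The rise was 5.03-fold in control cells (log2 fold change 2.33, SE 0.31, adjusted p = 0.00304) and 12.6-fold in the KO-labelled libraries (log2 3.66, SE 0.35, adjusted p = 6.82e-04, edgeR).

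*Krt8* (ENSMUSG00000049382.9, chromosome 15, 101827142 to 101834773, minus strand, 9 exons) was at 2302 and 2126 CPM in untreated control cells and at 3963 and 2990 CPM after TGF-β. This was a log2 fold change of 0.65 (SE 0.17, adjusted p = 0.0472, edgeR). Its levels in the KO-labelled libraries were 2504 and 2624 CPM before and 3338 and 4345 CPM after TGF-β, a log2 fold change of 0.58 (SE 0.17, adjusted p = 0.0792, edgeR) that was not called. The treated libraries lay above the untreated ones in both genotypes.

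*Krt18* (ENSMUSG00000023043.6, chromosome 15, 101858647 to 101862457, plus strand, 7 exons) was at 2488 and 2467 CPM in untreated control cells and at 5797 and 3854 CPM after TGF-β, a 1.95-fold rise (log2 0.96, SE 0.22, adjusted p = 0.0295, edgeR). With the KO label it was at 2841 and 2441 CPM untreated and 3014 and 4364 CPM treated. Its log2 fold change there was 0.48 (SE 0.22, adjusted p = 0.229, edgeR) and was not called. The first treated control library and the second treated KO-labelled library were the highest of all for *Krt18*, and they were also the higher of their groups for *Krt8* and *Krt80*.

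The calls of *Krt8* and *Krt18* in control cells were lost when only the libraries compared were fitted (adjusted p = 0.128 and 0.0669, edgeR). With the replicate number as a block that of *Krt8* was lost (adjusted p = 0.0718, edgeR). Each of these calls was also lost when any of 5 single libraries was left out. *Krt8* was not called without either untreated control library (adjusted p = 0.191 and 0.202), without the first treated control library (log2 0.42, adjusted p = 0.123), or without either untreated KO-labelled library (adjusted p = 0.0924 and 0.0919, edgeR). *Krt18* was not called without the same libraries, in that order at adjusted p = 0.178 and 0.135, 0.0729 (log2 0.62), and 0.0602 and 0.0604 (edgeR). Among KO-labelled libraries both were called without a filter on low counts (*Krt8* log2 0.64, adjusted p = 5.66e-05, and *Krt18* log2 0.54, adjusted p = 9.97e-04, edgeR). There *Krt8* was also called by DESeq2 (log2 0.59, adjusted p = 0.0272), without the first treated library of that genotype (log2 0.79, adjusted p = 0.0412, edgeR), and without either treated control library (log2 0.61 in both cases, adjusted p = 0.0216 and 0.0197, edgeR). The call of *Krt14* held in both genotypes under each setting run, with log2 fold changes of 2.25 to 2.41 in control cells and 3.19 to 4.05 in the KO-labelled ones.

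**Figure D2:**
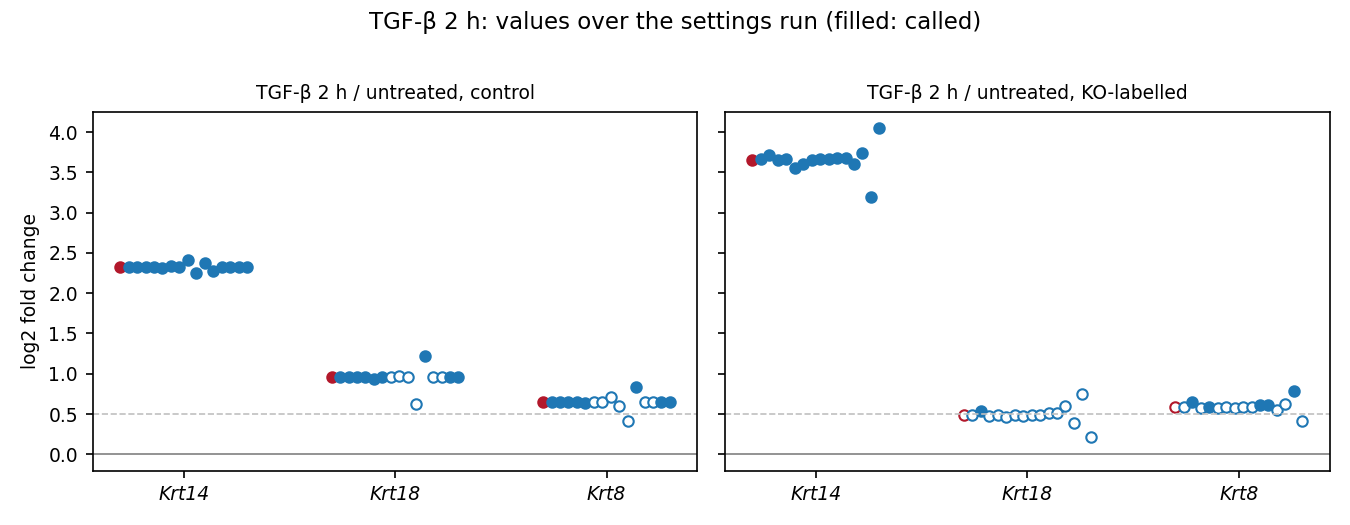
Log2 fold change after TGF-β (y axis) of *Krt14*, *Krt18* and *Krt8* in control libraries (left) and KO-labelled libraries (right) under each setting run, the reported value in red and the alternatives in blue, filled where called. The dashed line marks the threshold of 0.5. All points of *Krt14* are filled, from 2.25 to 4.05, whereas those of *Krt18* and *Krt8* are partly open.

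Of the members that were not called in either genotype, *Krt19* and *Vim* had small values with small errors, and *Krt80* and *Krt7* had imprecise ones. *Krt19* (ENSMUSG00000020911.8, chromosome 11, 100002124 to 100009979, minus strand) was at 968.0 and 1013 CPM in untreated and 928.1 and 940.5 CPM in treated control cells (log2 -0.08, SE 0.12, adjusted p = 0.687, edgeR). *Vim* (ENSMUSG00000026728.3, chromosome 2, 13495554 to 13504453, plus strand) was at 2566 and 2526 CPM in untreated and 2670 and 2799 CPM in treated control cells (log2 0.10, SE 0.11, adjusted p = 0.604, edgeR). The RNA of this mesenchymal filament protein was thus already abundant before treatment. The log2 fold changes in the KO-labelled libraries were -0.08 (SE 0.12) for *Krt19* and 0.05 (SE 0.11) for *Vim*, neither of which was called.

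*Krt80* (ENSMUSG00000037185.7, chromosome 15, 101177875 to 101200556, minus strand) ranged from 18.4 to 37.4 CPM, and its lowest and highest values were both in treated libraries. *Krt7* (ENSMUSG00000023039.9, chromosome 15, 101241474 to 101260744, plus strand) ranged from 0.326 to 1.76 CPM, and its log2 fold changes of 0.52 (SE 0.67) in control libraries and -1.18 (SE 0.70) in the KO-labelled ones were not called (adjusted p = 0.661 and 0.363, edgeR). The treated libraries of *Krt7* lay below the untreated ones with the KO label and overlapped with them in control cells. With the KO label TGF-β raised 1 of the 7 tested members by this rule and lowered 0, with 4.25% of all genes called higher and 2.57% called lower. The median over the members was 0.05 there, against 0.00 over all genes.

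**Figure D3:**
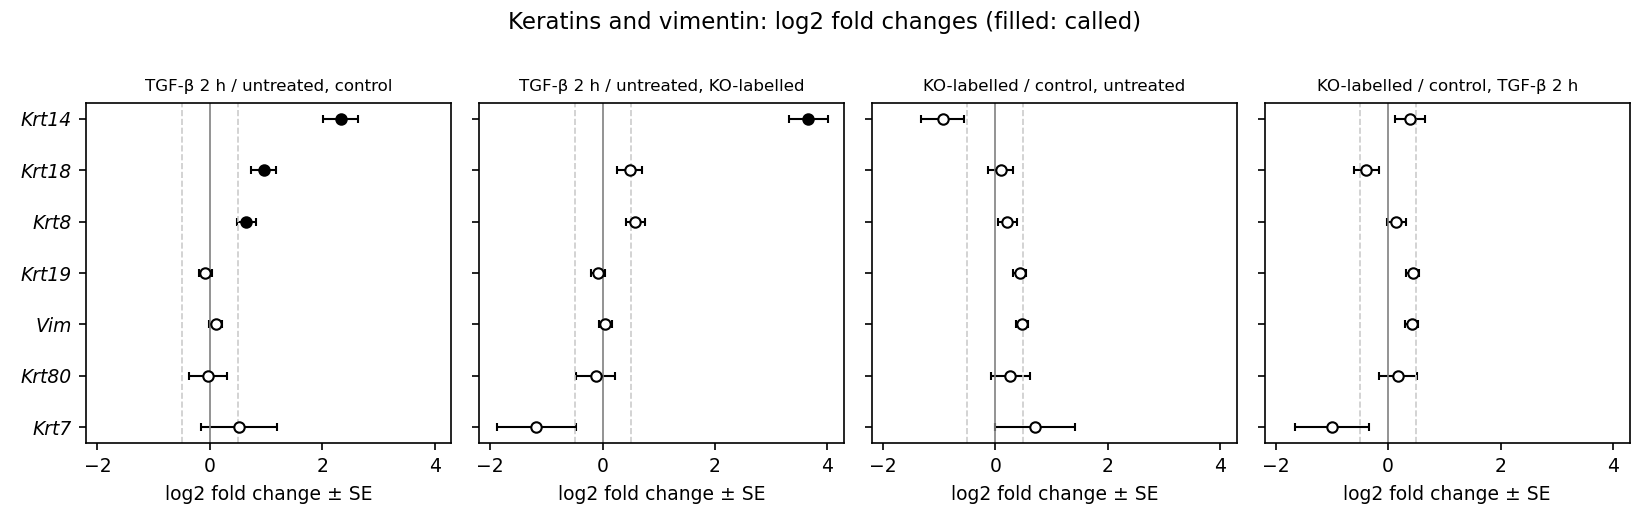
Log2 fold change with its standard error (x axis) of the 7 tested members in 4 comparisons, the TGF-β response in control libraries and in KO-labelled libraries, and the difference of genotypes untreated and after TGF-β. Filled points were called and dashed lines mark 0.5. *Krt14* stands at 2.33 and 3.66 in the first and second panels, and no member was called in the other two.

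The next question was whether the genotypes differed. In untreated cells 0 of the 7 tested members were called in either direction, against 1.03% of all genes with a call for a higher and 0.798% for a lower level in the KO-labelled libraries. The unadjusted p was below 0.05 for 3 of them (*Vim*, *Krt19* and *Krt14*), and for 1936 of the 13028 genes tested (edgeR). DESeq2 and limma-voom also called 0 members. By DESeq2 *Vim* passed the adjusted p-value but not the fold change threshold (log2 0.47, adjusted p = 0.0389). By limma-voom its adjusted p was 0.0732. The median over the members was 0.26, against 0.02 over all genes. After TGF-β 0 of 7 were called, against 8.47% higher and 6.57% lower of all genes. The unadjusted p was below 0.05 for 2 of them (*Vim* and *Krt19*), and for 4086 of the 13028 genes tested (edgeR). DESeq2 and limma-voom called 0 members, and the median was 0.17 against -0.01 over all genes.

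*Vim* and *Krt19* separated the genotypes in the same direction with and without TGF-β. *Vim* was at 3524 and 3553 CPM in the untreated and 3769 and 3564 CPM in the treated KO-labelled libraries, each above the 2526 to 2799 CPM of the control libraries. Its log2 fold changes were 0.47 (SE 0.11, adjusted p = 0.0827) untreated and 0.42 (SE 0.11, adjusted p = 0.0365, edgeR) after TGF-β. *Krt19* was at 1376 and 1300 CPM untreated and at 1251 and 1278 CPM treated in the KO-labelled libraries, above the 928.1 to 1013 CPM of the control libraries. Its log2 fold changes were 0.43 (SE 0.12, adjusted p = 0.113) and 0.44 (SE 0.12, adjusted p = 0.0355, edgeR). After TGF-β both passed the adjusted p-value but not the fold change threshold. Of the 7 tested members these 2 had all 4 KO-labelled libraries above all 4 control libraries, as had 8.30% of all genes.

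*Krt14* was the only tested member whose value was lower in the untreated KO-labelled libraries, at 2.54 ± 0.165 against 4.91 ± 0.388 (SD, n = 2) CPM. Its log2 fold change of -0.94 (SE 0.38, adjusted p = 0.283, edgeR) was not called. After TGF-β its levels overlapped between genotypes, at 32.4 ± 13.3 and 24.8 ± 1.35 (SD, n = 2) CPM. *Krt8* and *Krt18* had log2 fold changes of 0.21 (SE 0.17) and 0.09 (SE 0.22) untreated and of 0.14 (SE 0.17) and -0.39 (SE 0.22) after TGF-β, with overlapping libraries in the treated groups.

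The difference of the TGF-β responses between genotypes was tested as an interaction. It was called for 0 of the 7 tested members and for 0.00% of all genes, by the adjusted p-value alone. Of all genes 1134 had an unadjusted p below 0.05, DESeq2 called 30 genes and limma-voom 0, and edgeR without a filter on low counts called 147 genes higher and 64 lower. The largest difference relative to its error among members was that of *Krt14*, a log2 value of 1.33 higher in the KO-labelled libraries (SE 0.47, unadjusted p = 0.0182, adjusted p = 0.497, edgeR). That of *Krt18* was -0.48 (SE 0.31, adjusted p = 0.692), and that of *Krt8* -0.07 (SE 0.24, adjusted p = 0.967, edgeR). The 4 comparisons share libraries, so that a low *Krt14* in the untreated KO-labelled libraries enters both the genotype difference and the TGF-β response. DESeq2 gave no adjusted p for *Krt14* in this contrast.

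Since type I and type II chains pair, the per-length levels of all 50 keratin genes of the table were summed by type in each library. The sum of all keratins was 3566 ± 62.8 (SD, n = 2) CPM per kilobase in untreated and 5946 ± 1360 in treated control cells. It was 4067 ± 185.0 and 5528 ± 1074 (SD, n = 2) in the KO-labelled libraries. Type I RNA exceeded type II RNA in every library. The ratio of type II to type I was 0.558 and 0.513 in untreated and 0.470 and 0.502 in treated control cells. It was 0.506 and 0.6003 untreated and 0.647 and 0.630 treated in the KO-labelled libraries. The treated KO-labelled libraries had the highest ratios and did not overlap with any other group. With 2 libraries in a group this is a description without a test.

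Nearly all keratin RNA came from *Krt18*, *Krt8* and *Krt19*. In control cells *Krt18* made up 49.6 ± 0.572% of the per-length sum before and 57.6 ± 3.34% after TGF-β, *Krt8* 34.4 ± 1.33% and 32.5 ± 1.02%, and *Krt19* 15.0 ± 0.746% and 8.71 ± 2.07% (SD, n = 2). In the KO-labelled libraries *Krt18* made up 46.3 ± 2.85% and 47.4 ± 3.13%, *Krt8* 35.0 ± 2.75% and 38.5 ± 0.348%, and *Krt19* 17.7 ± 0.0898% and 12.6 ± 2.26% (SD, n = 2). The share of *Krt19* was lower in the treated libraries of both genotypes than in the untreated ones, while its own level was about the same. The share of *Krt14* stayed below 1%, at 0.0783 ± 0.00481% and 0.245 ± 0.0689% in control cells and 0.0356 ± 0.00393% and 0.354 ± 0.205% (SD, n = 2) in the KO-labelled libraries. The level of *Vim* relative to all keratins was 0.306 ± 0.00202 and 0.203 ± 0.0530 in control cells and 0.373 ± 0.0191 and 0.291 ± 0.0677 (SD, n = 2) in the KO-labelled libraries, the lower value of each pair being that after TGF-β.

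**Figure D4:**
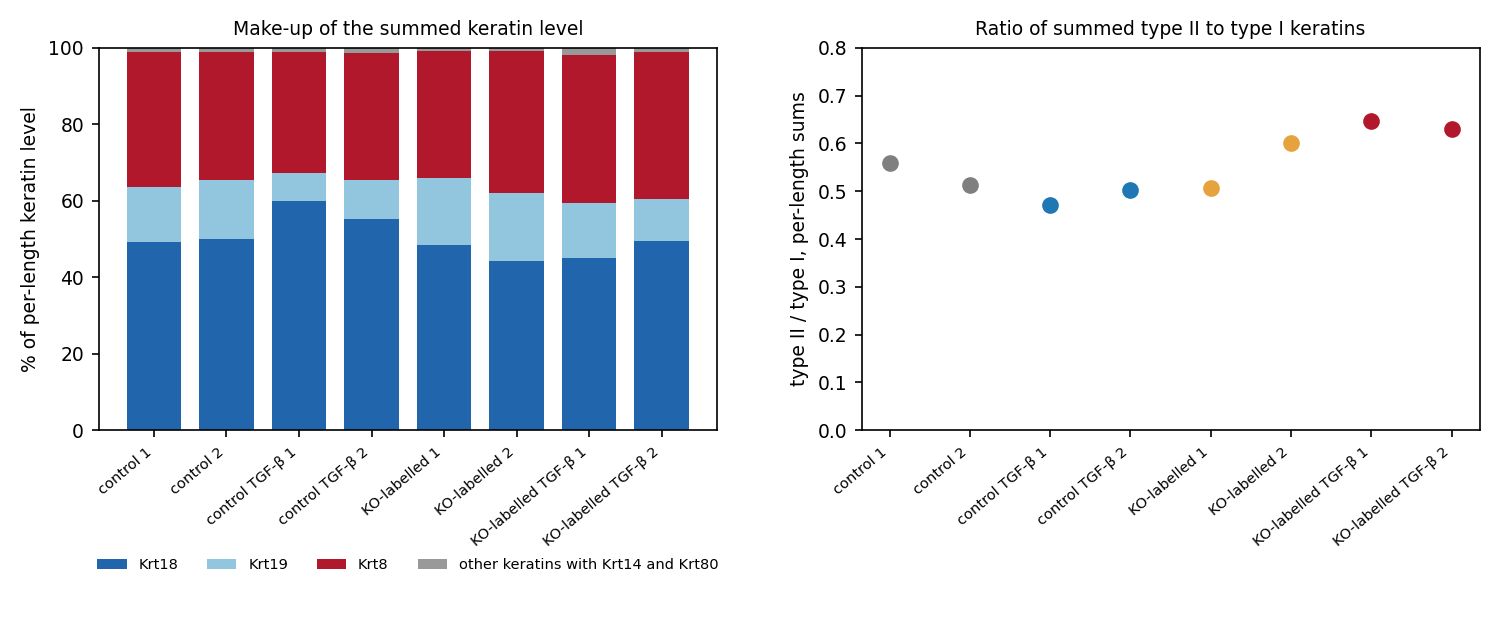
Left, share of the summed per-length keratin level (%) held by *Krt18*, *Krt19*, *Krt8* and the other keratins in each library. Right, ratio of summed type II to summed type I keratin levels in each library, coloured by group. The ratio is highest in the treated KO-labelled libraries, at 0.647 and 0.630.

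Of the 43 other keratin genes 7 passed the filter, *Krt6a*, *Krt6b*, *Krt10*, *Krt16*, *Krt20*, *Krt76* and *Krt79*. *Krt16*, a type I keratin of stressed and wounded epidermis, had 6 and 9 counts in untreated control cells, 129 and 58 after TGF-β. Its counts in the KO-labelled libraries were 1 and 17 untreated and 151 and 239 treated. It passed the filter through its treated libraries, so that a high level there was needed for it to be tested at all, and its values are given without a test. Of the other 6, *Krt20* was called higher after TGF-β in both genotypes and *Krt6a* lower in control cells, against 4.69% of all genes called higher and 4.47% lower in control cells and 4.25% and 2.57% in the KO-labelled libraries. *Krt20*, a type I keratin of intestinal and urothelial cells, was at 24.7 and 28.8 CPM in untreated and 65.4 and 75.03 CPM in treated control cells (log2 1.39, SE 0.22, adjusted p = 0.00625, edgeR). Among KO-labelled libraries *Krt20* was at 23.6 and 20.1 CPM untreated and 68.6 and 45.9 CPM treated (log2 1.40, SE 0.22, adjusted p = 0.00692, edgeR). *Krt14*, *Krt20*, *Krt8* and *Krt18* thus had all 4 treated libraries above all 4 untreated ones, as had 8.77% of all genes.

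*Krt6a*, a type II keratin of stressed and wounded epidermis and a usual partner of *Krt16*, went the other way in control cells. It was at 17.0 and 16.4 CPM untreated and 9.37 and 7.73 CPM after TGF-β, a log2 fold change of -0.96 (SE 0.22, adjusted p = 0.0274, edgeR). With the KO label it was at 28.7 and 28.2 CPM untreated and 35.9 and 27.7 CPM treated (log2 0.16, SE 0.20, adjusted p = 0.691, edgeR). It was the 1 other keratin called between genotypes, higher after TGF-β in the KO-labelled libraries with a log2 difference of 1.89 (SE 0.21, adjusted p = 0.00129, edgeR). Of all genes 8.47% were called higher and 6.57% lower there, and 1.03% and 0.798% between untreated genotypes. Untreated, the difference of *Krt6a* was 0.77 (SE 0.21, adjusted p = 0.114), and its interaction was 1.12 (SE 0.29, adjusted p = 0.444, edgeR). *Krt6b*, *Krt10*, *Krt76* and *Krt79*, with 3 to 52 counts in a library, were not called in any comparison.

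**Figure D5:**
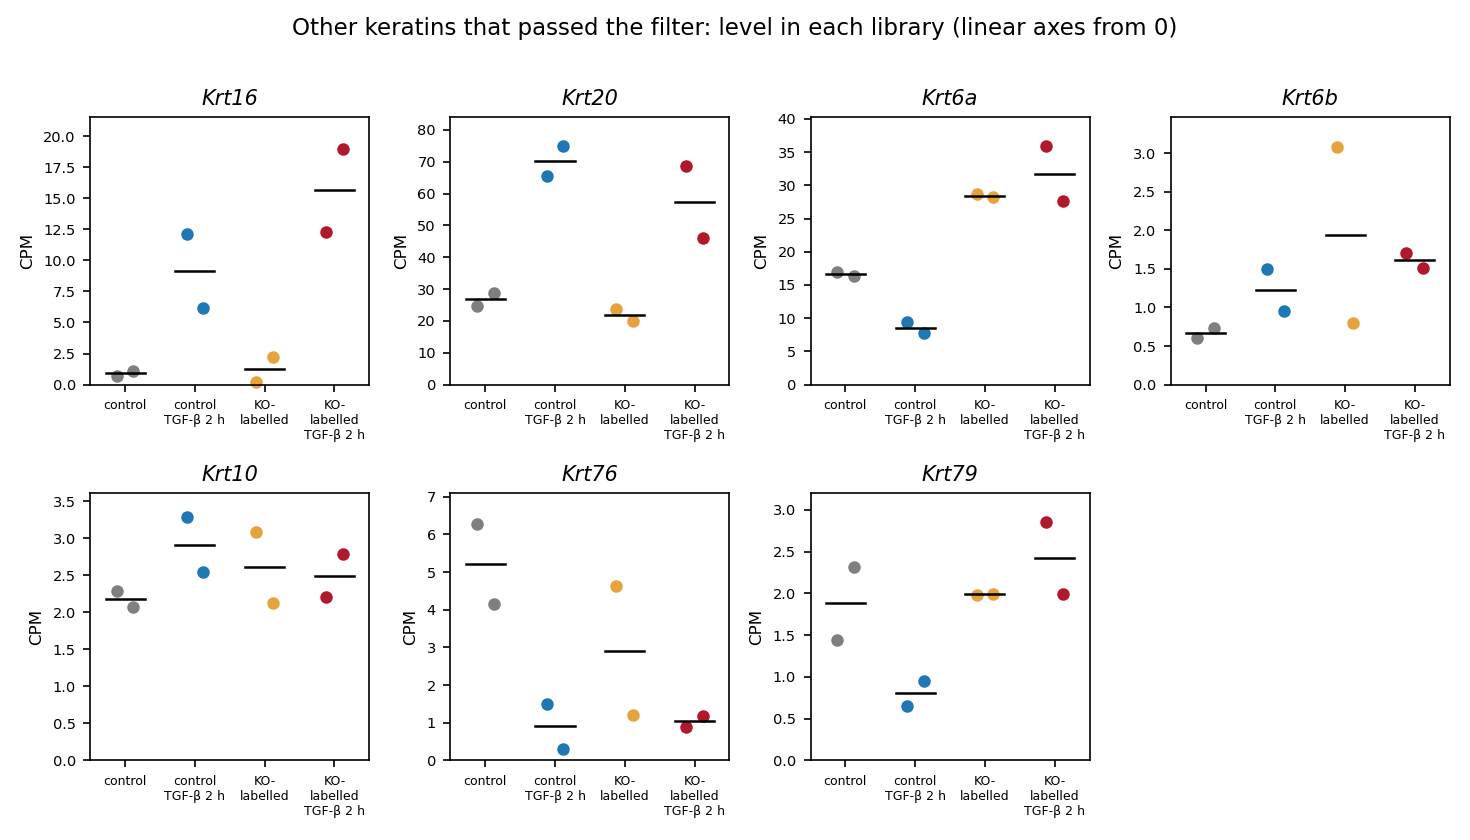
Level in CPM (linear axes from 0, scaled per gene) of the 7 other keratins that passed the filter, with a point for each library and a line at the mean of the 2 libraries of a group. *Krt16* and *Krt20* are higher in the treated libraries of both genotypes, and *Krt6a* is lowest in the treated control libraries.

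The keratins lie in 2 clusters. Chromosome 11 holds 27 type I genes from 99094075 to 100131185, of which 5 passed the filter and 11 had no count in any library. Chromosome 15 holds 22 type II genes, of which 7 passed the filter and 7 had no count, and next to them *Krt18* as the 1 type I gene there. *Krt8* and *Krt18* start 23874 bases apart and are transcribed away from each other, with no annotated gene between them. *Krt14* and *Krt16* are 38542 bases apart in the type I cluster, with only *Gm11597* and *Gm11598* between them. Their neighbours *Krt17*, *Krt42* and *Krt9* had 0 to 6 counts in a library, and *Krt19*, 54496 bases from *Krt14*, did not rise with TGF-β.

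Filaments are anchored at desmosomes and hemidesmosomes by linker proteins, of which 14 of 15 in the table were tested. In the untreated comparison of genotypes 0 of the 14 were called (median log2 0.10), against 1.03% higher and 0.798% lower of all genes. The unadjusted p was below 0.05 for 3 of them, each with a higher value in the KO-labelled libraries, *Pkp1* (log2 1.18, SE 0.29, adjusted p = 0.0888), *Dsp* (0.62, SE 0.17, adjusted p = 0.113) and *Jup* (0.35, SE 0.13, adjusted p = 0.244, edgeR). Of the 13028 genes tested, 1936 had an unadjusted p below 0.05 in this comparison. *Pkp1* is also among the genes that the study singled out in these libraries. After TGF-β 6 were called, each with a higher level in the KO-labelled libraries, with a median of 0.83 against -0.01 over all genes, of which 8.47% had a call for a higher and 6.57% for a lower level. These were *Plec* (log2 1.36, SE 0.29, adjusted p = 0.0152), which ties filaments to many structures, the desmosomal plaque proteins *Dsp* (1.12, SE 0.17, adjusted p = 0.00445), *Jup* (1.24, SE 0.13) and *Pkp1* (1.64, SE 0.27), the cornified envelope protein *Ppl* (0.78, SE 0.15, adjusted p = 0.0101) and *Fam83h* (0.88, SE 0.17, adjusted p = 0.0115, edgeR), which organizes keratin filaments. After TGF-β in control cells *Pkp1* (log2 1.25, SE 0.29) and *Pkp2* (0.57, SE 0.14) were called higher and *Ppl* lower (-1.22, SE 0.15, adjusted p = 0.00227, edgeR), against 4.69% and 4.47% of all genes. After TGF-β in the KO-labelled libraries *Pkp1* (1.71, SE 0.28), *Jup* (0.92, SE 0.13) and *Fam83h* (0.77, SE 0.17) were called higher and 0 lower, against 4.25% and 2.57% of all genes. Of 15 other intermediate filament genes 5 were tested, and 1 call was made over the 4 comparisons. This was the nuclear lamin *Lmnb2*, lower after TGF-β in control cells (log2 -0.76, SE 0.19, adjusted p = 0.0364, edgeR), against 4.47% of all genes. *Nes* was lower but uncalled in untreated KO-labelled libraries (log2 -3.40, SE 0.88, adjusted p = 0.102, edgeR), at 3 and 2 counts against 52 and 24 in control. The median log2 difference of the 5 was -0.01 there.

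The labelled cell type was set beside marker genes. Of 12 luminal markers 7 were tested, of which *Krt7*, *Krt8*, *Krt18* and *Krt19* are members, and 3 had no count in any library, among them the claudins *Cldn3* and *Cldn7*, and *Epcam* had 2 counts in 1 library and none in the others. The luminal sum consists mostly of *Krt8*, *Krt18* and *Krt19* and so is no evidence separate from the members. It was 6417 to 6488 CPM in untreated and 9000 to 11773 CPM in treated control libraries. In the KO-labelled ones it was 7180 to 7542 CPM untreated, without overlap with control, and 8755 to 11102 CPM treated, with overlap. Between treated genotypes 1 of the 7 was called, *Cdh1* (E-cadherin), higher in the KO-labelled libraries (log2 0.61, SE 0.17, adjusted p = 0.0433, edgeR), against 8.47% of all genes. *Krt7* (-0.999), *Krt18* (-0.39) and *Cd24a* (-0.31) had uncalled log2 values below 0 there. Of 9 basal markers only *Krt14* and *Mylk* passed the filter, and *Acta2*, *Krt17* and *Trp63* had at most 9 counts. The 9 basal markers summed to 64.9 to 81.5 CPM in untreated and 78.5 to 86.3 CPM in treated control libraries, and 89.7 to 112.3 and 140.6 to 148.4 CPM in the KO-labelled ones. Most of this sum was *Mylk*, a myosin kinase, at 57.6 ± 6.72 CPM in treated control and 111.2 ± 7.003 (SD, n = 2) CPM in treated KO-labelled libraries, where it was called higher (log2 0.95, SE 0.18, adjusted p = 0.0114, edgeR). Of 11 mesenchymal markers 3 passed, *Vim*, *S100a4* and *Col1a1*, while *Thy1* had no count and *Pdgfra* at most 9. Between genotypes 0 of these 3 were called, against 1.03% of all genes higher and 0.798% lower untreated and 8.47% and 6.57% after TGF-β. Beside *Vim*, *S100a4* had log2 differences of 0.13 (SE 0.12) untreated and -0.10 (SE 0.12) after TGF-β. Those of *Col1a1* were 1.60 (SE 0.88) and 0.60 (SE 0.68). The 4 endothelial and 3 adipocyte markers summed to at most 0.847 CPM, and the 4 leukocyte markers to at most 5.32 CPM.

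Of 10 markers of stratified epithelium 7 were tested. Between untreated genotypes 1 was called higher in the KO-labelled libraries and 0 lower, against 1.03% and 0.798% of all genes, with a median log2 difference of 0.77. After TGF-β 3 were called higher (*Sprr1a*, *Sprr1b* and *Krt6a*) and 0 lower, against 8.47% and 6.57% of all genes, with a median of 0.38. The summed level over the 10 genes was 388.9 to 414.6 CPM in untreated and 276.7 to 298.8 CPM in treated control libraries, against 661.9 to 812.6 and 795.0 to 911.7 CPM in the KO-labelled ones. Most of this sum was *Sprr1a* and *Sprr1b*, at 340.8 ± 23.4 and 39.5 ± 4.39 CPM in untreated control and 475.2 ± 63.7 and 226.3 ± 39.2 (SD, n = 2) CPM in untreated KO-labelled libraries. *Sprr1b*, a cornified envelope precursor, was higher in the KO-labelled libraries, with a log2 difference of 2.52 untreated (SE 0.18, adjusted p = 4.19e-04) and of 3.40 after TGF-β (SE 0.19, adjusted p = 1.38e-04, edgeR). *Sprr1a*, of the same family, was higher by 1.12 after TGF-β (SE 0.15, adjusted p = 0.00280, edgeR). Uncalled members of the list also had values below 0, *Ivl* with -0.65 (SE 0.59) untreated and -0.05 (SE 0.48) after TGF-β, and *Krt10* with -0.23 and *Lor* with -0.10 after TGF-β. The values of *Vim* and *Krt19* were higher in the KO-labelled libraries, as were those of *Sprr1a* and *Sprr1b*, and the part of another cell state in them was not tested.

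The members fell into groups by their pattern over the 8 libraries, given as Pearson correlations of log2 CPM and as a description, since the libraries share treatments and genotypes. *Krt8* and *Krt18* had a correlation of 0.86, *Krt14* had 0.76 with *Krt8*, and *Krt19* and *Vim* had 0.92. *Krt19* and *Krt8* had 0.08. Among 12437 genes with a mean of at least 10 counts, the genes most like *Krt14* were *Gadd45b* (0.987) and *Mtmr11* (0.983), and those most like *Krt8* were *Litaf* (0.995) and *Wdr1* (0.993). *Ifngr2* and *Tfdp2* (both 0.98) were most like *Krt18*, *Casp1* and *Prune2* (both 0.99) most like *Krt19*, and *Sspn* and *Klhl13* (both 0.99) most like *Vim*. *Dusp3* and *Bcl3* (both 0.95) were most like *Krt80*, and *Ubtf* and *SNORA70* (both 0.95) most like *Krt7*, whose few counts make this order uncertain.

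How far reads could belong to other genes was checked by aligning the longest transcript of each member to the genome (at least 95% identity over at least 75 bases). *Krt18*, *Krt19*, *Krt80* and *Vim* had no such copy. Of the *Krt8* transcript 1733 of 1805 bases matched a single stretch with 97.9% identity on chromosome 7, 24142113 to 24143830, inside *Nlrp4e*, which had 0 counts in all libraries. Of the *Krt14* transcript 302 bases matched *Krt17* or *Krt42*, which had 0 to 6 counts. How the authors' counting treated reads with several places is not given in the sources used here, so that the level of *Krt8* is the least certain of the abundant members in this respect. *Krt80* overlaps *Mir1941* on the opposite strand without shared exon bases, and no other member overlaps an annotated gene.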

How the data were processed

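A table of read counts per gene, deposited by the authors as whole numbers and not normalized, covers the 8 libraries. According to the study's methods, reads were aligned with subjunc of Rsubread to mm10 and mm9, duplicates were removed with samtools and counts were tested with DESeq2, whereas the submitters' processing notes name HISAT2, limma and mm10. The tool that counted reads and its handling of strand are not given in the sources used here, and the study's methods and the labels differ on RNA extraction, library kit and sequencer. Gene identifiers are those of GENCODE vM1 on NCBIM37 (mm9), which gave positions, exon lengths and sequences. All 37310 genes and all columns of the table were used (0 columns left out).

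In R 4.3.3, edgeR 4.0.16 gave CPM with TMM factors and all tests. The 13028 genes kept by filterByExpr over the 4 groups were fitted in a model of group means with glmQLFit and tested with glmQLFTest, with Benjamini-Hochberg adjustment over all of them. Calls needed an adjusted p below 0.05 and a log2 fold change beyond 0.5 in either direction, and for the interaction the adjusted p alone. Fits left 4 residual degrees of freedom. A standard error is the log2 fold change divided by the square root of F. The study's methods call the 2 libraries of each condition biological replicates, while the labels do not say how they were separated, so that p-values measure the spread between these libraries only. Alternatives were RLE factors, other filters, DESeq2 1.42.0, limma-voom (limma 3.58.1), the replicate number as a block, a fit of only the libraries compared, the adjusted p alone, other lengths and keratin sets, and each library left out. The text names the 8 members, every other keratin tested, called genes among linkers and other intermediate filament genes, TGF-β targets, the targeted gene, 3 genes that the study singled out and the 2 genes most correlated with each member. Marker genes named singly, and the uncalled *Nes*, were chosen after their values were seen. A gene of the list that checked the TGF-β treatment is not reported here. The members, lists and rules were chosen with earlier results of these data known. Windows around gene starts were compared with RefSeq ones (6 of 8 members had one), and copies were searched with blastn 2.17.0+.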

Additional observations from a re-analysis of the deposited data

How the results depend on the processing

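The calls of *Krt14* after TGF-β held under every alternative in both genotypes, and the numbers of members called lower stayed at 0 in all comparisons. The number of members that TGF-β raised in control cells was 3, and 1 when only the libraries of the comparison were fitted, where *Krt8* had an adjusted p of 0.128 and *Krt18* of 0.0669 (edgeR), and 1 to 3 with a library left out. In the KO-labelled libraries it was 1, and 3 without a filter on low counts, 2 with DESeq2 and 1 to 2 with a library left out. Between treated genotypes it was 0, and 2 (*Vim* and *Krt19*) by the adjusted p alone. For that rule the share of all genes is not given here, so that these 2 cannot be set beside it. The cause of the changes between settings was not tested. The ratio of type II to type I keratins in the treated KO-labelled libraries was 0.616 with the longest transcript as the length, in place of 0.638, by the construction of that alternative, and stayed the highest of the groups.

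The numbers of all genes called, which give the shares set beside the members, depended on single libraries. Between treated genotypes they were 1103 higher and 856 lower, and 335 and 142 without the second treated KO-labelled library and 1622 and 1140 without the first treated control library, the lowest and highest with a library left out. Those between untreated genotypes (134 and 104) ranged from 22 to 204 and from 18 to 186, those after TGF-β in control cells (611 and 583) from 87 to 658 and from 58 to 826, and those in the KO-labelled libraries (554 and 335) from 93 to 869 and from 43 to 513. In the same order of comparisons, treated genotypes first, they were 1667 and 1156, 328 and 428, 1019 and 1002, and 1206 and 626 without a filter, and 262 and 148, 367 and 437, 276 and 194, and 582 and 356 when only the libraries compared were fitted. Between untreated genotypes DESeq2 gave 227 and 201, limma-voom 78 and 59 and the replicate block 80 and 70. The interaction had 0 calls, 147 and 64 without a filter, 23 and 7 with DESeq2, and at most 6 and 1 with a library left out.

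Values that changed sign were all uncalled. With a library left out, the log2 fold change between untreated genotypes of *Krt18* ranged from -0.022 to 0.19. Between treated genotypes that of *Krt8* ranged from -0.046 to 0.38, that of *Krt14* from -0.094 to 0.77 and that of *Krt80* from -0.40 to 0.62. That of *Krt80* after TGF-β ranged from -0.48 to 0.29 in control cells and from -0.68 to 0.32 in the KO-labelled libraries. The interaction ranged from -0.23 to 0.19 for *Krt8*, from -0.029 to 0.0497 for *Krt19*, from -0.64 to 0.38 for *Krt80* and from -0.061 to 0.026 for *Vim*, and that of *Vim* was 0.0172 without a filter. Of 517 alternative values of single members, 477 kept their direction and side of the threshold.

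The labels number the replicates 1 and 2 in each group but do not say that a number marks a shared culture or batch. The deviations from the group means of libraries with the same number had Pearson correlations across genes of 0.098 between untreated genotypes, -0.473 between treated genotypes, 0.297 in control cells and -0.0092 in the KO-labelled libraries. With the replicate number as a block, 2 in place of 3 members were called after TGF-β in control cells (*Krt8* log2 0.65, adjusted p = 0.0718, edgeR), and no other call of a member changed. An alternative chosen after seeing the data, the block with exchanged numbers in the treated KO-labelled group, gave 1539 genes called higher and 1270 lower between treated genotypes, against 858 and 632 with the labelled numbers, and 0 members in each.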
